A study of Homo sapiens with 12 samples.

Results

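The genes described here carry the names of proteins of the cytosolic ribosome. They were measured in PC9, an EGFR-mutant cell line from a human lung adenocarcinoma. Members were the protein-coding genes whose symbols follow the RPL, RPLP and RPS patterns, together with RPSA, with pseudogenes and the RPS6K kinases set aside. The rule gave 84 genes of the 62754 in the deposited table, 52 with large-subunit names and 32 with small-subunit names, and 82 passed the low-count filter. RPL10L had 0 counts in every library and RPL3L 0 to 2, at or below the floor of 3 counts, so neither was tested. The rule left out FAU, RPL36AL and RACK1, which also belong to the ribosome and are given separately. Poly(A) RNA was sequenced from 12 libraries in 4 groups of 3 replicate cultures. Untreated WT were TDP1 wild-type cells without drug. DTC (drug-tolerant cells) and DTEC (drug-tolerant expanded cells) were TDP1 wild-type cells kept for 7 and for 28 days, respectively, in erlotinib, an inhibitor of the EGFR kinase, at 1 µM. KO were untreated cells of KO2, the single TDP1 knockout line sampled. Per the labels, all cells derive from a subclonal line and the cultures of a condition were split from one flask, so the tests measure the spread between such sister cultures.

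Each ribosome holds one copy of most of these proteins, and cells keep their synthesis in step with growth. Most of their messenger RNAs begin with a short run of pyrimidines, the 5′ terminal oligopyrimidine (TOP) motif, through which mTORC1 and the RNA-binding protein LARP1 set their translation and stability. A few members have paralogues that can replace them in the ribosome or are made in certain tissues, such as RPL3L in muscle and RPL10L and RPL39L in the testis. RPL22 protein is known to bind the messenger of its own paralogue RPL22L1 and hold it down, and RPS27L is known as a p53-inducible relative of RPS27.

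The start sites of 12 members on which the results below turn are printed first, because the TOP motif is a feature the rule did not use and most members carry it while most of the paralogues do not. They were chosen after values had been seen. Each line gives 15 bases before and 15 bases from the annotated start, on the strand of the gene, from RefSeq (GRCh38.p14). Capitals mark an unbroken run of pyrimidines that begins with C at the start and is at least 5 bases long.
RPL22: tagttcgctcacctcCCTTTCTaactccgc
RPL22L1: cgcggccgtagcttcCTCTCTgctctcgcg
RPS27: atttccgctttcgctCCTTTCCggcggtga
RPS27L: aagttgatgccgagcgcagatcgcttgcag
RPL26: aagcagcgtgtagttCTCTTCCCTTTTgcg
RPL26L1: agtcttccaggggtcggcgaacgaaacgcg
RPL39: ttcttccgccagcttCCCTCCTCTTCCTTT
RPL7L1: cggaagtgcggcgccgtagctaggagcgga
RPL3: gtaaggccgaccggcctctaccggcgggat
RPSA: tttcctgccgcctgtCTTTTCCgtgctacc
RPLP0: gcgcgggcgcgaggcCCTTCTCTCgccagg
RPL13A: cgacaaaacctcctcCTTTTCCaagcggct
RPL22 lies on the minus strand (chr1:6199581-6199610 for the bases shown) and so does RPL22L1 (chr3:170870181-170870210). RPS27 (chr1:153990747-153990776) and RPL26L1 (chr5:172958714-172958743) lie on the plus strand, and RPS27L (chr15:63157463-63157492) and RPL26 (chr17:8383179-8383208) on the minus strand. RPL39 (chrX:119791616-119791645), RPL3 (chr22:39319609-39319638) and RPLP0 (chr12:120201097-120201126) lie on the minus strand, and RPL7L1 (chr6:42879601-42879630), RPSA (chr3:39406705-39406734) and RPL13A (chr19:49487593-49487622) on the plus strand.

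A promoter entry was found for 67 of the 84 members. A start of C followed by at least 4 more pyrimidines, read at an annotated start on the gene's strand, was present in 47 of these (70.1%), against 7.07% of the tested genes with an entry and 5.14% of all entries. Among the 62 members with an entry that are not on the list of 7 paralogues, 46 had it (74.2%). A run beginning within 10 bases of an annotated start was present in 58 of the 67 members (86.6%) and in 41.8% of the tested genes. Of the 5 paralogues with an entry, RPL22L1 had the run at an annotated start, and RPS27L, RPL26L1, RPL7L1 and RPL10L did not. RPL26L1 has 2 listed starts, of which the first is printed. RPL3 lacked the run at the start listed for it. A match is a description of these letters, and the starts used in PC9 cells were not measured.

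The libraries held 25572691 to 38373679 estimated counts. Levels are in CPM, which are counts relative to the TMM-scaled library total. TDP1 stood at 10.8 ± 0.647 CPM in KO and 26.3 ± 1.60 CPM in untreated WT (SD, n = 3), in the direction of the label. Epithelial markers were high (EPCAM from 359 to 714 CPM). Among lung lineage genes, NKX2-1 and SFTPC stayed at or below 0.442 and 0.088 CPM, whereas NAPSA reached 1.96 CPM and SFTPB 17.1 CPM. Leukocyte and erythroid genes were at or near 0. PECAM1 (7.62 to 95 CPM), CDH5 (24.6 to 49.6 CPM) and COL1A1 (7.79 to 56.8 CPM) were detected. VWF reached 1.85 CPM, and COL1A2, PDGFRB and DCN stayed at or below 0.0351, 0.421 and 0.0676 CPM. Of the 1008 deposited member values, 448 (44.4%) were whole numbers within 1e-06. In 24 members no value was whole (RPL3, RPL10, RPL7L1, RPS2 and RPSA among them), and in 17, among them RPL22L1, RPL11 and RPS6, all 12 were. Fractions arise where reads that fit several places are shared out, and members have many processed pseudogenes, so levels of members with fractional values carry that uncertainty. The 1601 pseudogene entries named after members held counts equal to 1.07% to 1.49% of those of the members. For 76 members the pseudogenes named after them came to less than 1% of the gene's own counts. They reached 10.3% for RPS2, 14.8% for RPS28, 70.8% for RPL23A and 78.01% for RPL36A.

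One library stood apart. DTC replicate 1 had the lowest level of the 3 DTC libraries in 80 of the 82 tested members, whereas this library was the lowest of the 3 in 42.3% of all tested genes. The median ratio of DTC replicate 2 to DTC replicate 1 was 2.12 over the members, with a range from 0.828 to 3.47, and 1.01 over all tested genes. The 2 exceptions were RPL3 (847, 844 and 947 CPM in DTC replicates 1, 2 and 3) and RPL7L1 (198, 164 and 159 CPM). Most DTC results are therefore given with and without that library, a choice made after the data had been seen. In bulk RNA, fewer cells of a kind and less RNA per cell cannot be told apart.

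Ribosomal protein messengers took 6.17%, 5.81% and 5.83% of all counts in the 3 untreated WT libraries. The share was 3.60%, 7.21% and 5.93% in DTC, which spans a range below and above untreated WT. It was 6.77%, 6.78% and 7.59% in DTEC, above every untreated WT library, and 5.19%, 5.49% and 5.49% in KO, below every untreated WT library. The group means were 5.93% ± 0.202, 5.58% ± 1.83, 7.05% ± 0.472 and 5.39% ± 0.176 (SD, n = 3). Mitochondrially encoded genes took 4.43%, 5.41% and 5.22% of the counts in the DTC libraries and 2.60% ± 0.147 in untreated WT. Leaving them out of the total gave member shares of 5.88% ± 1.95 in DTC and 6.09% ± 0.204 in untreated WT.

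**Figure D1:**
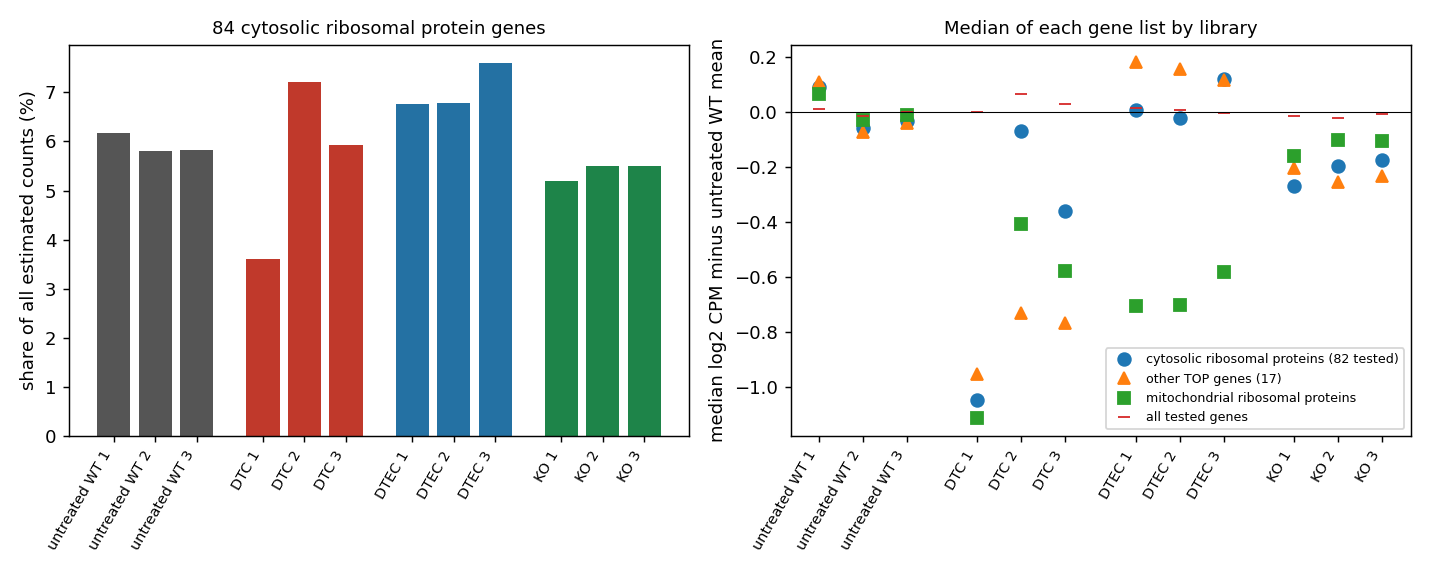
Left, share of all estimated counts (%) taken by the 84 ribosomal protein genes in each of the 12 libraries. Right, per library, the median over each gene list of log2 CPM minus the untreated WT mean. DTC replicate 1 stands at 3.60% on the left, and on the right its member median is -1.05 against -0.07 and -0.36 in the other DTC libraries.

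After 7 days of erlotinib the ribosomal protein genes did not move as a block. Against untreated WT, 38 of the 82 tested members fell and 2 rose (edgeR quasi-likelihood test, adjusted p under 0.05), where 33.3% of all tested genes fell and 34.0% rose. The member median log2 fold change was -0.44, beside 0.06 over all genes, and 70 of the 82 values were below 0. Fallers were 27 of 50 large-subunit members and 11 of 32 small-subunit members; the difference between the subunits was not tested. In 38 members the 3 DTC libraries lay below the 3 untreated WT libraries and in 2 above, where 33.8% and 35.1% of all genes did. Without DTC replicate 1, 31 members fell and 12 rose (33.3% and 36.7% of all genes), with a median of -0.16. All 31 were among the 38, and the 10 additional risers included RPL26, RPL31, RPL39, RPS12, RPS20 and RPS27A. How many fell differed between scalings. Scaling by total counts alone left 11 fallers (21.6% of all genes), with a median of -0.08 over the members and 0.41 over all genes. The upper quartile left 13 (23.8%), with medians of -0.14 and 0.34.

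**Figure D2:**
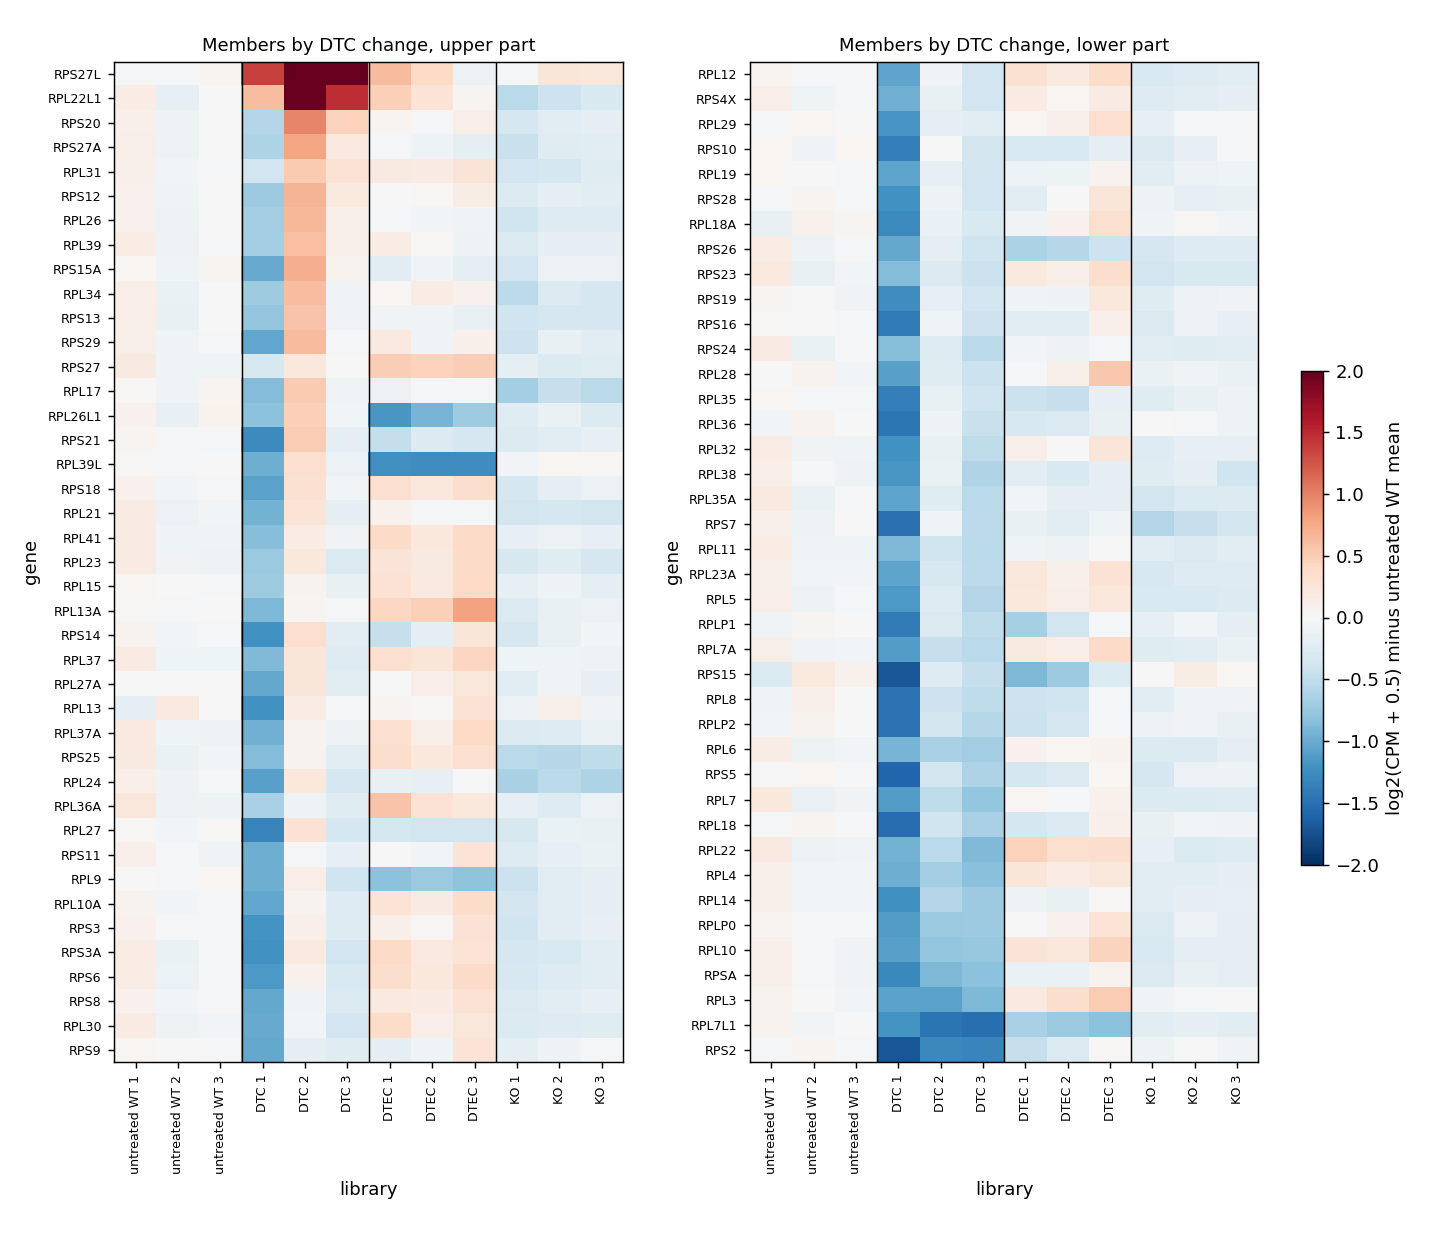
Log2(CPM + 0.5) minus the untreated WT mean for 81 of the 82 tested members (vertical axis, ordered by their DTC log2 fold change) in the 12 libraries (horizontal axis); colours saturate at 2 on either side. DTC replicate 1 is blue in all members shown but RPS27L and RPL22L1, DTC replicates 2 and 3 range from red at the top to blue at the bottom, and the 3 KO libraries are pale blue in most members.

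The members that fell farthest in DTC were RPS2, RPL7L1, RPL3, RPSA and RPL10. RPS2, which lines the entry of the messenger channel on the small subunit, was at 2537, 2697 and 2549 CPM in untreated WT and at 795, 1060.5 and 1039.7 CPM in DTC. All 3 DTC libraries thus lay below the untreated WT range, at 37.2% of its mean (log2 fold change -1.43, SE 0.136, adjusted p 4.18e-07 by edgeR's quasi-likelihood test). RPL7L1, a relative of RPL7, was at 477, 433 and 448 CPM and fell to 198, 164 and 159 CPM. It is a member by its symbol, and whether its protein is part of the ribosome was not examined. The change of RPL7L1 was -1.38 (SE 0.102, adjusted p 3.19e-08, edgeR), and here DTC replicate 1 was the highest of the 3. RPL3, a protein next to the peptidyl transferase centre, went from 1849, 1756 and 1706 CPM to 847, 844 and 947 CPM, or 49.7% of untreated WT (-1.01, edgeR adjusted p 6.94e-07). In each of these 3 genes the spread over the DTC libraries was smaller than the fall. The log2 fold changes of RPS2, RPL7L1 and RPL3 were -1.27, -1.45 and -0.95 without DTC replicate 1, all called.

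RPSA, which sits on the head of the small subunit and is also known as a laminin receptor, went from 963, 867 and 853 CPM to 367, 480.5 and 503 CPM (-0.99, edgeR adjusted p 5.29e-06). RPL10, which joins the large subunit late in its assembly, went from 1494, 1364 and 1327 CPM to 653, 808 and 827 CPM (-0.87, edgeR adjusted p 8.18e-06). RPL4, whose long loop lines the exit tunnel, was called too (-0.82, edgeR adjusted p 4.16e-06). RPSA, RPL10 and RPL4 were called at -0.83, -0.73 and -0.72 when DTC replicate 1 was left out. All 5 of the farthest fallers have fractional values only, so pseudogene reads may enter their levels. Summing each member with its pseudogenes gave 39 fallers, for which the share of all genes is not given.

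Among the stalk proteins, which recruit the translation factors, RPLP0 was at 1863, 1754 and 1744 CPM in untreated WT and at 825, 1066 and 1084 CPM in DTC (-0.85, edgeR adjusted p 1.83e-05). RPLP1 and RPLP2, the acidic proteins that bind RPLP0, fell by 0.66 and by 0.73 on the log2 scale (edgeR adjusted p 0.0171 and 0.00676). All 3 were called without DTC replicate 1, at -0.70, -0.37 and -0.43. The calls of RPLP1 and RPLP2 were lost with total counts alone (adjusted p 0.232 and 0.123), the upper quartile and equal summed member counts, and over all alternatives their adjusted p ran from 3.28e-06 to 0.325 and from 1.06e-07 to 0.192. RPL5 and RPL11, which ride with the 5S ribosomal RNA and can hold MDM2, fell by 0.62 and by 0.60 (edgeR adjusted p 0.00384 and 0.000472). Both were also called without DTC replicate 1, at -0.38 and -0.43. Neither was called with total counts alone (adjusted p 0.163 and 0.0799) or with equal summed member counts, nor was RPL5 with the upper quartile (adjusted p 0.105; ranges over all alternatives 2.86e-05 to 0.459 and 7.05e-06 to 0.711). Equal summed member counts hold the sum of the members fixed, so a call lost there does not bear on a fall they share.

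Several members of central roles were not called in DTC. RPS6, the substrate of the S6 kinases downstream of mTORC1, was at 1123, 934 and 980.4 CPM in untreated WT and at 453, 1073 and 819 CPM in DTC (-0.37, edgeR adjusted p 0.145). Its DTC values span both sides of the lowest untreated WT library, and its value without DTC replicate 1 was -0.065. RPL41, the shortest of the proteins, had a log2 fold change of -0.20 (adjusted p 0.341), and 0.07 without DTC replicate 1. RPS27A, made as a fusion to ubiquitin, was at 1306, 1122 and 1202 CPM and then at 791, 2087 and 1383 CPM. Its value was 0.23 (adjusted p 0.412) with all DTC libraries and 0.55 without DTC replicate 1.

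The 2 members called higher with all 3 DTC libraries were both paralogues. Without DTC replicate 1, 12 members rose (36.7% of all genes), among them RPL26 and RPL39, which are not on the paralogue list. RPS27L was at 12.1, 12.2 and 12.8 CPM in untreated WT and at 32.7, 89.9 and 54.7 CPM in DTC. The lowest DTC library lay above the highest untreated WT library by more than the spread of the latter, and the mean was 478% of untreated WT (log2 fold change 2.26, SE 0.301, edgeR adjusted p 2.68e-05). RPL22L1 was at 64.7, 52.2 and 58.5 CPM and then at 89.5, 251 and 163 CPM, 287% of untreated WT (1.52, SE 0.275, edgeR adjusted p 0.00034). The values without DTC replicate 1 were 2.58 and 1.85. Both were called in all 15 alternatives, with log2 fold changes from 1.88 to 2.65 and from 1.17 to 1.92. The 12 deposited values of RPL22L1 were whole numbers, whereas 2 of 12 were for RPS27L.

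The partners did not rise. RPL22 was at 318, 260.3 and 266 CPM in untreated WT and at 145, 193 and 152 CPM in DTC, a fall to 58.0% (-0.79, edgeR adjusted p 3.95e-05), and was called at -0.67 without DTC replicate 1. RPS27 had a log2 fold change of -0.02 (adjusted p 0.883), and with total counts alone it was called higher at 0.33 (adjusted p 0.0268). A share within a pair does not depend on the scaling of the libraries. RPL22L1 took 16.9%, 16.7% and 18.0% of the summed RPL22 and RPL22L1 counts in untreated WT and 38.2%, 56.5% and 51.7% in DTC. The lowest DTC share, that of DTC replicate 1, was thus more than 2 times the highest in untreated WT. RPS27L took 2.70%, 3.27% and 3.42% of its pair in untreated WT and 9.63%, 16.8% and 12.4% in DTC. With 3 libraries against 3 an exact permutation test cannot give a p below 0.1, so no test of the shares is given.

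Scaling each library to the same summed member counts, a choice made after the data had been seen, shows which members moved relative to the others. On that scale 8 members rose in DTC and 2 fell, where 44.6% and 9.31% of all genes did. The risers were RPS27L (2.65), RPL22L1 (1.92), RPS20, RPL31, RPS27A (0.64), RPS12, RPL26 (0.53) and RPL39 (0.52), and the fallers were RPS2 (-0.92) and RPL7L1 (-0.78), all as log2 fold changes. RPL3 (-0.45), RPSA (-0.48) and RPL22 (-0.26) were not called on it.

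**Figure D3:**
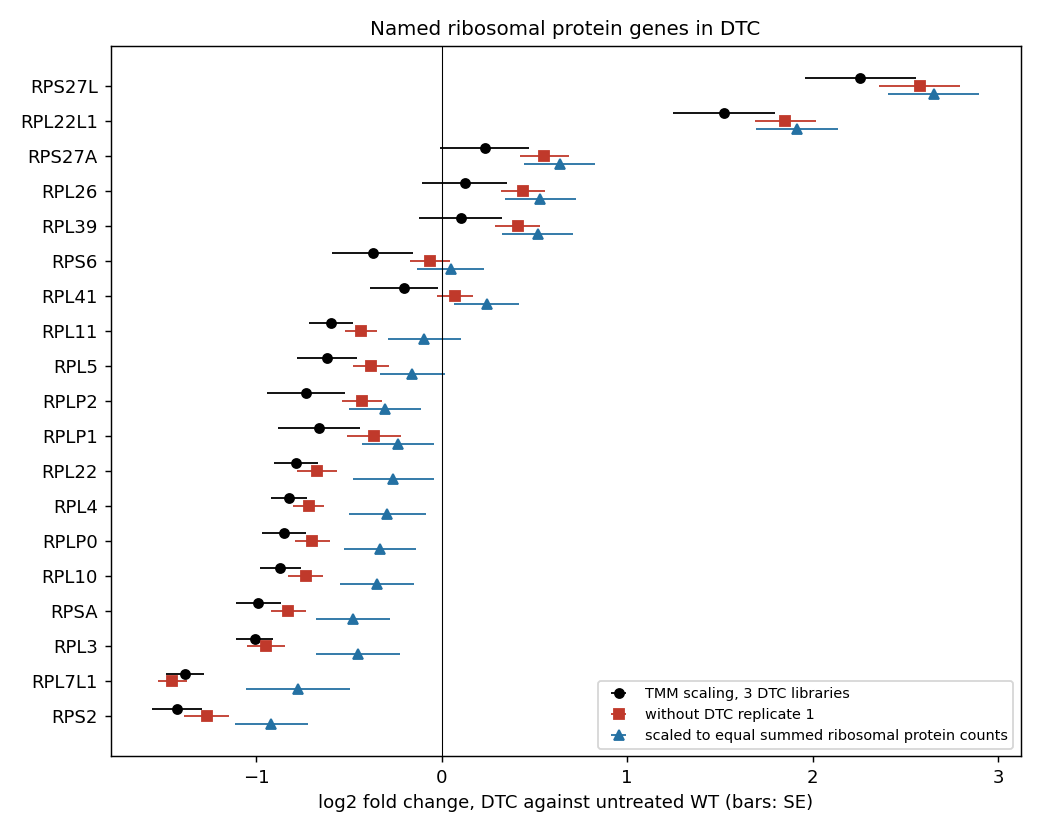
Log2 fold change of 19 named members in DTC against untreated WT (horizontal axis; bars, SE) with all DTC libraries, without DTC replicate 1, and after scaling to equal summed member counts. RPS27L and RPL22L1 stay above 1 and RPS2 and RPL7L1 stay below -0.7 in all 3, while RPS27A, RPL26 and RPL39 lie near 0 with all DTC libraries and above 0.4 in the others.

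Members with longer coding sequences had lower fold changes in DTC. Across the 82 tested members, coding length in GENCODE 29 and log2 fold change had a Pearson r of -0.44 and a Spearman rho of -0.49. Over the 13552 tested coding genes r was -0.08, and it was also -0.08 over the 6792 with a coding length in the range of the members (75 to 1281 bases). These are descriptions across genes, which share the same 6 libraries and are not independent. Without DTC replicate 1, r was -0.46 over the members. The 40 members shorter than the median of 453 bases had a median change of -0.28, and the 42 others -0.47. In DTEC against untreated WT r was 0.11 and in KO -0.06.

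**Figure D4:**
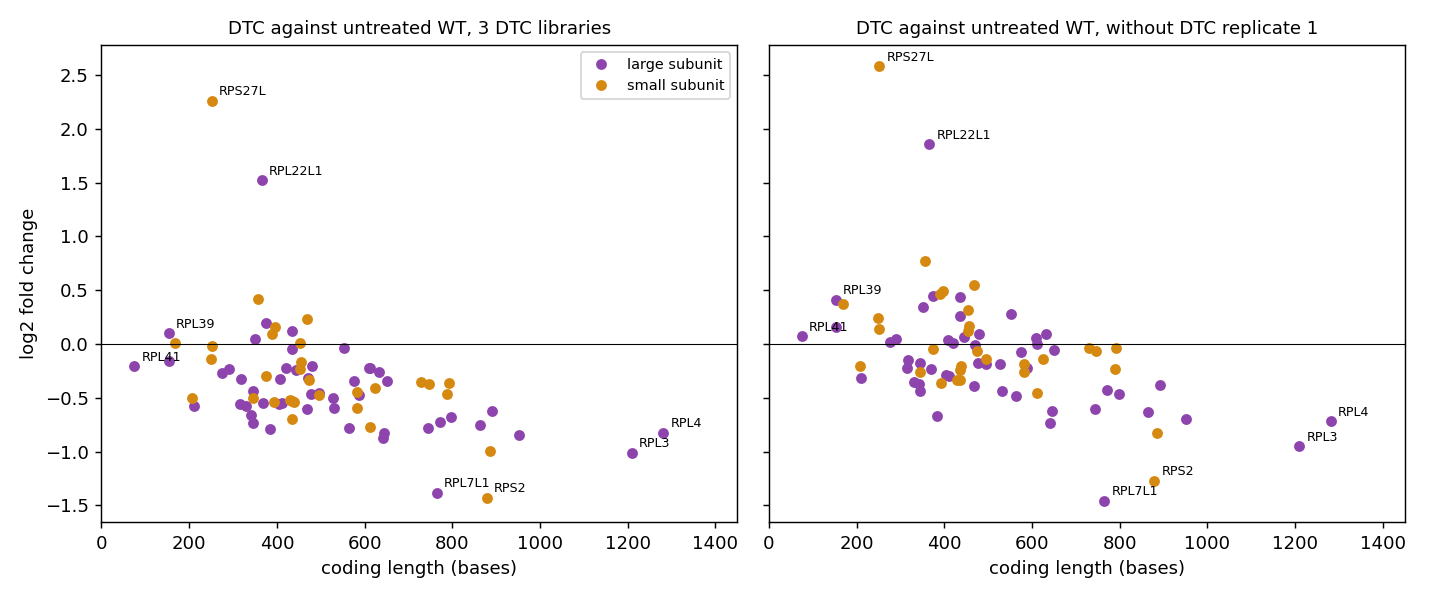
Log2 fold change in DTC against untreated WT (vertical axis) against coding length in bases (horizontal axis) for 81 of the 82 tested members, with all DTC libraries on the left and without DTC replicate 1 on the right. RPL3, RPL4, RPS2 and RPL7L1 lie low among the longer genes, and RPS27L and RPL22L1 lie far above all others among the shorter ones.

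After 28 days of erlotinib most ribosomal protein genes were near their untreated level. Against untreated WT, 6 members rose and 5 fell in DTEC (edgeR quasi-likelihood test), where 26.0% and 26.3% of all tested genes did, and the member median was 0.06, beside 0.02 over all genes. The 3 DTEC libraries lay above the 3 untreated WT libraries in 21 members and below them in 12 (31.1% and 31.3% of all genes). The count changed with the libraries in the fit, for a cause that was not tested. When DTC replicate 1, in neither compared group, was left out of the shared fit, 24 members were called higher and 13 lower (29.2% and 28.6% of all genes), the first 11 among them. With the 6 compared libraries alone the counts were 24 and 11 (29.9% and 29.1% of all genes), and with total counts alone 15 and 4 (33.6% and 19.1%).

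The members that fell in DTEC were RPL39L, RPL26L1, RPL9, RPL7L1 and RPS26. RPL39L, the paralogue known from male germ cells, was at 51.5, 49.7 and 50.5 CPM in untreated WT and at 21.3, 21.2 and 21.1 CPM in DTEC. Its level was 41.9% of untreated WT, with a spread in either group far smaller than the change (log2 fold change -1.26, SE 0.227, edgeR adjusted p 0.000432). It took 4.98%, 5.74% and 5.56% of its pair with RPL39 in untreated WT and 2.12%, 2.32% and 2.51% in DTEC. No deposited value of RPL39L or RPL39 was whole, so their levels and this share carry the uncertainty of shared reads. RPL26L1, a close copy of RPL26, went from 42.1, 35.6 and 41.7 CPM to 17.4, 20.7 and 24.0 CPM (-0.94, SE 0.241, edgeR adjusted p 0.00527). Their partners RPL39 (0.02, adjusted p 0.947) and RPL26 (-0.06, adjusted p 0.857) were not called.

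RPL9, at the base of the stalk, went from 83.0, 80.2 and 85.3 CPM to 46.8, 49.5 and 47.4 CPM (-0.79, edgeR adjusted p 0.00391). No deposited value of RPL9 was whole either, so its level carries the same uncertainty of shared reads. RPL7L1 was at 289.9, 271 and 257 CPM in DTEC, 60.2% of untreated WT (-0.73, edgeR adjusted p 3.45e-05). RPS26, which touches the messenger upstream of its start codon, had a value of -0.54 (edgeR adjusted p 0.0119). Its call was lost with total counts alone and without untreated WT replicate 1 or DTEC replicate 1 (adjusted p 0.0663, 0.0574 and 0.0512; range over all alternatives 9.38e-05 to 0.0663).

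The members that rose in DTEC were RPL13A, RPS27, RPL22, RPL36A, RPL3 and RPL10. RPL13A, known for a second role in silencing inflammatory messengers, was at 1962, 1903 and 1929 CPM in untreated WT and at 2560.0, 2692 and 3381 CPM in DTEC (0.58, edgeR adjusted p 0.0215). All DTEC libraries lay above untreated WT, with DTEC replicate 3 the highest, and the call was lost without it (adjusted p 0.0908) and without untreated WT replicate 2 or 3 (0.0542 and 0.0501; range over all alternatives 7.69e-05 to 0.0908). RPS27 went from 437, 361 and 362 CPM to 543, 531 and 543 CPM (0.48, edgeR adjusted p 0.00523). RPL22 was at 384, 351 and 359 CPM in DTEC, above its untreated WT range (0.38, edgeR adjusted p 0.0153), a call lost without untreated WT replicate 2 or 3 (adjusted p 0.0559 and 0.0532). RPL3 reached 2036, 2249 and 2525 CPM (0.36, edgeR adjusted p 0.008).

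RPL10 had a log2 fold change of 0.31 (edgeR adjusted p 0.0293) and was called in 11 of 16 alternatives, and the call was lost on leaving out DTEC replicate 3 or either of untreated WT replicates 2 and 3. RPL36A, whose named pseudogenes hold a large count beside its own, had 0.36 (edgeR adjusted p 0.0468) and was called in 9 of 16, and not without any 1 of untreated WT replicates 2 and 3 and DTEC replicates 1 and 2. Summed with its pseudogenes it had 0.32 (adjusted p 0.103; range over all alternatives 0.00501 to 0.319). Scaled to equal summed member counts, 1 member rose in DTEC (RPL13A, 0.49) and 6 fell (RPL39L, RPL26L1, RPL9, RPL7L1, RPS26 and RPS15), where 14.7% and 16.5% of all genes did.

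DTEC against DTC asks how the later stage differs from the earlier. Here 44 members were higher in DTEC and 4 lower (edgeR quasi-likelihood test), where 28.8% and 26.6% of all tested genes were, with a member median of 0.48 and -0.01 over all genes. The higher ones were 30 of 50 large-subunit and 14 of 32 small-subunit members. Groups did not overlap in 42 members with DTEC above and in 3 with DTEC below (29.0% and 27.7% of all genes). Without DTC replicate 1 the counts were 39 and 18 (30.4% and 29.9% of all genes), and the 39 and the first 4 lower ones were called both ways. With total counts alone 25 were higher and 5 lower (20.8% and 34.8% of all genes), and the medians of the members and of all genes were 0.29 and -0.20.

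RPL3 was the member with the largest rise, from 847, 844 and 947 CPM in DTC to 2036, 2249 and 2525 CPM in DTEC (1.37, SE 0.102, edgeR adjusted p 9.38e-08). RPS2 went from 795, 1060.5 and 1039.7 CPM to 1886, 2125 and 2649 CPM (1.20, edgeR adjusted p 4.88e-06). RPL10 (1.18), RPL22 (1.16) and RPL4 (1.03) followed, with edgeR adjusted p of 9.57e-07, 1.99e-06 and 1.05e-06. In each of these genes the lowest DTEC library lay above the highest DTC library. All 5 were called without DTC replicate 1, from 0.94 for RPL4 to 1.33 for RPL3. Scaled to equal summed member counts, 4 members remained higher, RPL3 (0.73), RPS2 (0.61), RPL10 (0.58) and RPL22 (0.57), and 17 were lower (3.82% and 44.1% of all genes).

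With all DTC libraries, the 4 members called lower in DTEC than in DTC were paralogues. They were RPS27L (-1.91, edgeR adjusted p 0.000161), RPL22L1 (-1.24, adjusted p 0.00204), RPL39L (-1.10, adjusted p 0.0011) and RPL26L1 (-0.90, adjusted p 0.00661). Without DTC replicate 1, 18 members were called lower (29.9% of all genes), and not only paralogues. The partners RPL26 (-0.48, edgeR adjusted p 0.00281) and RPL39 (-0.37, edgeR adjusted p 0.0146) were among them. RPS27L was at 19.4, 16.4 and 11.4 CPM and RPL22L1 at 81.5, 70.4 and 60.6 CPM in DTEC, which overlaps untreated WT in both. RPL22L1 took 17.5%, 16.7% and 14.4% of its pair in DTEC, below every DTC library. In CPM, RPL39L and RPL26L1 had DTC libraries on both sides of untreated WT (25.4, 63.7 and 46.8 CPM for RPL39L, and 22.2, 55.3 and 38.2 CPM for RPL26L1). Their shares of their pairs in DTC were 4.415%, 4.536% and 4.656% for RPL39L and 8.254%, 8.049% and 8.202% for RPL26L1. The lowest untreated WT shares were higher, at 4.979% and 8.748%. In the other direction, RPL7L1 was higher in DTEC than in DTC (0.65, edgeR adjusted p 9.05e-05), and RPL3L and RPL10L stayed at the floor.

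**Figure D5:**
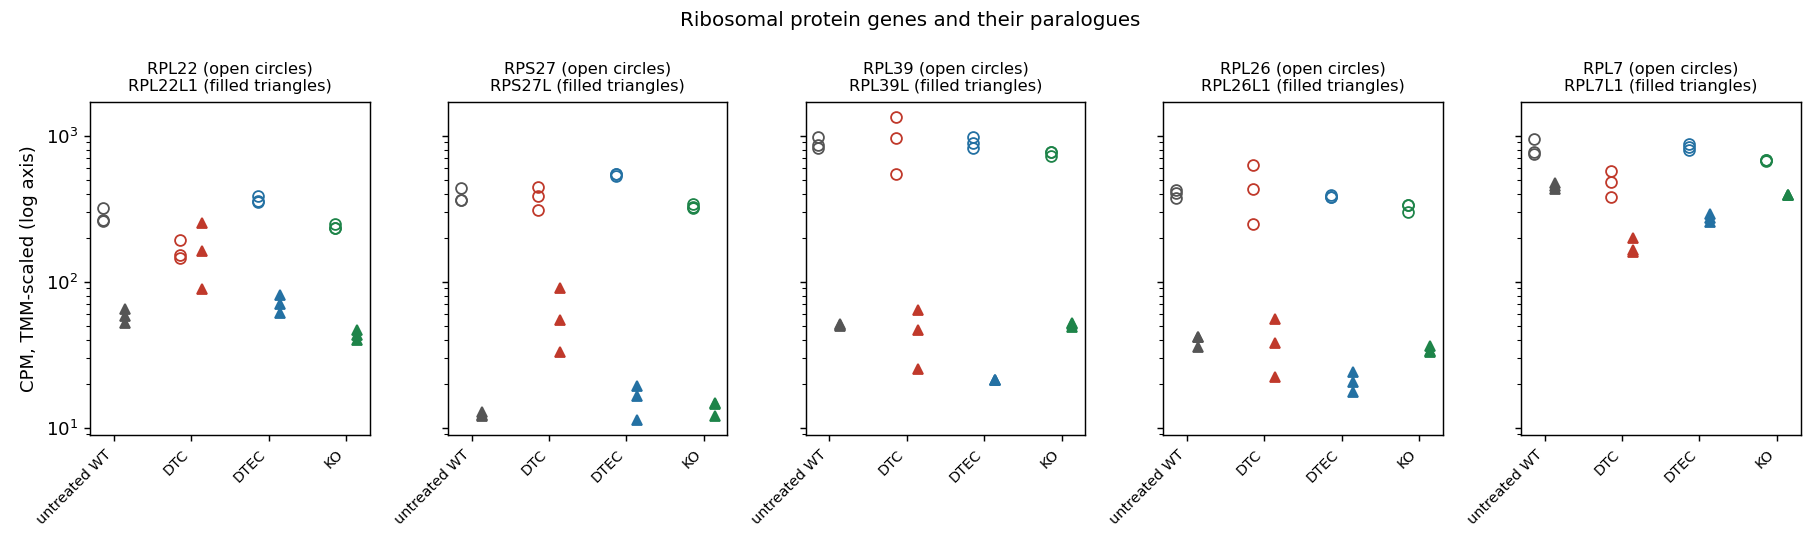
CPM on a log axis for 5 members (open circles) and their paralogues (filled triangles) in the 3 libraries of each of the 4 groups. RPL22L1 and RPS27L stand higher in DTC than in any other group, RPL39L stands lowest in DTEC, and RPL7L1 stands lowest in DTC.

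In the TDP1 knockout line most ribosomal protein genes had slightly lower values, and no single member passed the test. Of the 82 tested members, 0 were called (edgeR quasi-likelihood test), where 2.76% of all tested genes rose and 1.55% fell. An unadjusted p under 0.05 was found in 6 members (7.32%), all 6 lower. Of the 17115 tested genes, 2847 had one (16.6%, both directions together), and 1274 of these were lower. The member median was -0.22, beside -0.01 over all genes, and 80 of 82 values were below 0. The 3 KO libraries lay below the 3 untreated WT libraries in 66 members (80.5%), against 19.9% of all tested genes, and above them in 0, against 15.8%. Members share the same 6 libraries and are not independent, so these counts over members are descriptions. The median was also below 0 under the upper quartile (-0.20) and under total counts alone (-0.15). Scaling to equal summed member counts gave -0.01, but that scale holds the sum of the members fixed. It cannot show a shift they share.

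The number of KO calls changed with the libraries in the fit, and the cause was not tested. With the 6 compared libraries alone 40 members were called lower (8.29% of all genes), and without DTC replicate 1 in the shared fit 9 were (3.57% of all genes). Those 9 were RPL17, RPL21, RPL23A, RPL24, RPL31, RPL35A, RPS7, RPS23 and RPS25, named after their values were seen. DESeq2 called 1 member lower, for which the share of all genes is not given. RPL24, which bridges the subunits, was at 1162, 990.2 and 1031 CPM in untreated WT and at 672, 728 and 689 CPM in KO (-0.61, edgeR adjusted p 0.169). RPS25, known for its part in internal initiation, was at 609, 493 and 522 CPM and at 369, 364 and 380 CPM in KO (-0.55, edgeR adjusted p 0.107). In both genes the groups do not overlap. RPL3 (-0.04) and RPS2 (-0.06), the far fallers of DTC, overlapped between KO and untreated WT. RPL22L1 was at 39.7, 43.5 and 46.9 CPM in KO (-0.43, edgeR adjusted p 0.470), and RPS27L had a value of 0.15.

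Of the 3 ribosomal proteins FAU, RPL36AL and RACK1, 2 fell in DTC and none rose, and there was no call in DTEC against untreated WT or in KO. With DTC replicate 1 left out, RACK1 was the only faller of the 3 in DTC (33.3% of all genes fell). RACK1, a signalling scaffold on the small subunit, fell from 1643 ± 63.5 to 759 ± 68.5 CPM in DTC (-1.11, edgeR adjusted p 6.4e-06; -1.01 without DTC replicate 1). RPL36AL, a close copy of RPL36A, had -0.27 (edgeR adjusted p 0.0461), and the call was lost in every alternative run but the one with members summed with pseudogenes, where RPL36AL itself is unsummed (adjusted p 0.0464; range over all alternatives 0.0464 to 0.907). Its direction turned with total counts alone (0.082), the upper quartile (0.016) and equal summed member counts (0.25). Of 17 other TOP genes, which encode elongation and initiation factors and related proteins, 14 fell and 1 rose in DTC (33.3% and 34.0% of all tested genes). In DTEC against DTC 15 were higher and 0 lower (28.8% and 26.6% of all tested genes). Their medians were -0.76 and 0.76. With DTC replicate 1 left out, 14 fell and 1 rose in DTC (33.3% and 36.7% of all genes), with a median of -0.70. In DTEC against DTC 15 were then higher and 1 lower (30.4% and 29.9% of all genes), with a median of 0.65. Per library their median was -0.95, -0.73 and -0.76 in DTC, a narrower span than that of the ribosomal proteins (-1.05, -0.07 and -0.36). HNRNPA1, an RNA-binding protein, was at 663 ± 53.4 CPM in DTC and 1825 ± 202 CPM in untreated WT (-1.46, edgeR adjusted p 2.98e-08; -1.49 without DTC replicate 1). EIF4B, an initiation factor, rose in DTEC to 997 ± 11.6 CPM from 639 ± 43.9 CPM in untreated WT (0.64, edgeR adjusted p 0.000248).

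Of 16 mTORC1 and TOP translation regulators, 8 fell and 1 rose in DTC (33.3% and 34.0% of all tested genes). In DTEC against untreated WT 8 fell and 4 rose (26.3% and 26.0% of all tested genes), so the share of risers was near that of all genes. Without DTC replicate 1, 10 fell and 2 rose in DTC (33.3% and 36.7% of all genes). The DTEC counts were again 8 and 4 (28.6% and 29.2% of all genes). LARP1, which binds TOP messengers, fell from 704 ± 21.9 CPM to 202 ± 48.4 CPM in DTC (-1.80, edgeR adjusted p 5.23e-08; -1.98 without DTC replicate 1) and was at 389 ± 34.4 CPM in DTEC (-0.86, adjusted p 0.000125). EIF4EBP1, the repressor that mTORC1 inactivates, fell in DTC (-1.45, edgeR adjusted p 1.6e-06; -1.20 without DTC replicate 1) and in DTEC was at 70.1 ± 1.56 CPM, beside 70.2 ± 3.77 CPM in untreated WT. DDIT4 and SESN2, both inhibitors of mTORC1 signalling, rose in DTEC by log2 fold changes of 1.94 and 1.83 (edgeR adjusted p 7.78e-08 and 8.96e-06). All 8 dedicated chaperones of ribosomal proteins fell in DTC and in DTEC, where 33.3% and 26.3% of all tested genes fell, with medians of -1.09 and -1.003. Without DTC replicate 1 all 8 were again called lower in both (33.3% and 28.6% of all genes), with medians of -0.95 and -0.98. GRWD1, the chaperone of RPL3, was at 138 ± 23.9 CPM in untreated WT, 38.0 ± 1.87 CPM in DTC and 50.4 ± 7.77 CPM in DTEC. BCCIP, the chaperone of RPL23, was at 106 ± 11.9, 37.2 ± 1.47 and 52.5 ± 2.89 CPM. In KO no gene of these lists was called. Without DTC replicate 1 in the shared fit 2 other TOP genes and 2 chaperones were called lower (3.57% of all genes).

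Mitochondrial ribosomal proteins gave another pattern across time. Of 78 tested, 56 fell and 2 rose in DTC and 61 fell and 1 rose in DTEC against untreated WT, with medians of -0.66 and -0.65. Of all tested genes 33.3% fell and 34.0% rose in DTC, and 26.3% and 26.0% in DTEC. Here too DTC replicate 1 was the lowest library, with a list median of -1.11 beside -0.40 and -0.58 in DTC replicates 2 and 3. Without it 49 fell and 7 rose in DTC (33.3% and 36.7% of all genes), with a median of -0.43. The cytosolic members had 38 and 5 fallers of 82 in the same comparisons and medians of -0.44 and 0.06, and their DTC median without DTC replicate 1 was -0.16. MRPS2 fell in both (-1.96 and -0.92, edgeR adjusted p 8.6e-09 and 2.46e-05) and so did MRPL12 (-1.58 and -1.45, edgeR adjusted p 3.21e-05 and 0.00012). Their DTC values without DTC replicate 1 were -1.84 and -1.27. In KO 1 fell, MRPS31 (-0.49, edgeR adjusted p 0.0279), a call made in 7 of 16 alternatives. It was lost on leaving out any 1 of the 6 compared libraries (edgeR adjusted p 0.0505 to 0.142), with total counts alone (0.0535) and with no low-count filter (0.123), and its adjusted p ran from 0.00595 to 0.784 over all alternatives. In the shared fit without DTC replicate 1, 5 of the 78 were called lower (3.57% of all genes). The difference between the cytosolic and mitochondrial lists was not tested.

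Members with and without the pyrimidine start are given side by side, with no test. The set without it includes members whose run begins within 10 bases of an annotated start. It also holds the paralogues RPS27L, RPL26L1 and RPL7L1, so the split mixes the start with paralogue status. In DTC the 47 tested members with the start had a median of -0.37 and 21 fallers, and the 19 without it a median of -0.48 and 10 fallers. Of all tested genes 33.3% fell. In DTEC against untreated WT the medians were 0.07 and 0.023, with 5 risers and 0 fallers among the 47 and 1 riser and 4 fallers among the 19. Of all tested genes 26.0% rose and 26.3% fell. RPL26L1 and RPL7L1 were among the 4 fallers. In DTEC against DTC the medians were 0.47 and 0.45, and in KO both were -0.22. The promoter word CCGGAAG, searched on both strands as CCGGAAG or CTTCCGG in the 300 bases from 250 before to 50 after the start, was present in 35.8% of members, 21.2% of tested genes and 12.2% of all entries.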

How the data were processed

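RNA of 12 PC9 libraries was measured as 1 table of estimated counts per gene, deposited by the authors without scaling to depth. RSEM 1.3.1, Bowtie2 2.5.2, DESeq2 1.40.2 and the GRCh38 build are named in the submitters' processing notes, and the annotation release is not given in the sources used here. Values were rounded to whole counts. All 12 libraries were fitted together in edgeR 4.0.16 (R 4.3.3, limma 3.58.1) with filterByExpr by group, which kept 17115 genes, TMM scaling, robust dispersions and the quasi-likelihood test. Adjusted p-values are Benjamini-Hochberg values over those 17115 genes, and 0.05 was the limit for a call. SE is that of the log2 fold change and ± is the SD over 3 libraries. CPM values use TMM-scaled totals. The scripts were tested on simulated data.

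Members and gene lists were chosen with earlier results of these data known. The rule named, per comparison, the 5 rising and 5 falling called members with the largest change and a mean of at least 10 CPM, besides the 7 paralogues, their partners, RPLP0, RPLP1, RPLP2, RPL5, RPL11, RPS6, RPSA, RPS27A and RPL41, and 2 genes per other list. RPL4, RPL17, RPL24, RPS7, RPS25 and genes given only by name in counts outside it were chosen after their values were seen. Symbols were found for 62700 of the 62754 identifiers. Gene types and coding lengths come from GENCODE 29, which holds 58261 of them. Transcript lengths were not used, so levels are not compared between genes. Results of 2 genes are not reported here by name. Readthrough genes such as RPL17-C18orf32 and RPS10-NUDT3 share sequence with members. Since the labels name only 1 batch, there was nothing to compare within batches. Alternatives were other scalings (RLE, total counts, upper quartile, equal summed member counts), no low-count filter, the compared libraries alone, a replicate block, each compared library left out, DTC replicate 1 left out throughout, members summed with pseudogenes, and DESeq2 1.42.0. Floors cover counting error only, since the reads carry no molecular identifiers.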

Additional observations from a re-analysis of the deposited data

How the results depend on the processing

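Depth was not the limit for the 82 tested members, whereas RPL10L and RPL3L could not be assessed at 3 counts or fewer. Of 124 alternative member counts 30 moved by more than 1.5 times, as did 102 of 620 counts for the other lists, and the cause was not tested. Most counts here and in the next paragraph stand without the share of all genes called under the same setting. They show how the calls moved, and not how the members compare with other genes. With total counts alone, 6 members rose and 11 fell in DTC, 15 rose in DTEC, and 25 were higher in DTEC than in DTC. With the upper quartile, 4 rose and 13 fell in DTC, and 23 were higher in DTEC than in DTC. With the compared libraries alone, 24 fell in DTC, 24 rose and 11 fell in DTEC, 27 were higher in DTEC than in DTC, and 40 fell in KO. Without a low-count filter, 9 fell in DTEC and 4 in KO, and DESeq2 called 1 lower in KO. Scaled to equal summed member counts, 8 rose and 2 fell in DTC, 1 rose in DTEC, and 4 were higher and 17 lower in DTEC than in DTC.

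Leaving out 1 library at a time gave 2 to 12 risers and 25 to 59 fallers in DTC, with 25 fallers without untreated WT replicate 1 and 59 without DTC replicate 2. In DTEC it gave 2 to 24 risers (2 without untreated WT replicate 2 or 3) and 4 to 13 fallers. DTEC against DTC had 28 to 57 higher (28 without DTEC replicate 3, 57 without DTC replicate 2) and 4 to 18 lower members, and KO had 0 to 9 fallers. The replicate block gave 2 risers and 41 fallers in DTC, 5 and 6 in DTEC, 46 and 4 in DTEC against DTC, and 0 in KO. Deviations from the group means correlated from -0.03 to 0.18 in the 18 pairs of same-numbered libraries, with 4 over 0.1. In the other pairs they correlated from -0.19 to 0.12. Whether the replicate numbers pair the libraries was not tested.

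Among named genes, RPS27 was called higher in DTC with total counts alone (0.33). With equal summed member counts the DTEC against DTC values of RPL11 (-0.058), RPL7L1 (-0.027), RPS27 (-0.074), BCCIP (-0.13) and GRWD1 (-0.24) turned below 0 and were not called. RPL36AL in DTC was at 0.082 (total counts alone), 0.016 (upper quartile) and 0.25 (equal summed member counts), called in none. For genes that were not called, 74 of 771 alternative values had the other sign.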
